A study of Mus musculus with 10 samples.

Results

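Matrix metalloproteinases (MMPs) and their tissue inhibitors (TIMPs) were followed in the liver of 10 mice labelled ApoE-/-, for 10 genes: Mmp13, Mmp2, Mmp8, Mmp9, Mmp12, Mmp14, Mmp15, Timp1, Timp2 and Timp3. The members were all probe sets that the array's annotation pairs with 1 of these symbols and no other, which gave 21 probe sets of 9 genes out of 34945 probe sets and 18193 genes. Mmp15, a membrane-bound MMP, matched no such probe set and is not analysed here. The set was chosen by the difference in Mmp13 signal between the study's groups on these same arrays, so the differences between the groups in these genes are given as a description.

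The study used 2 groups of 5 mice, and the labels give all 10 mice as ApoE-/-, which the Apoe signal below goes against in 5 of them. Control mice (replicates 11 to 15) had received an adenovirus that expresses GFP, a fluorescent protein, and the other mice (replicates 16 to 20) an adenovirus that expresses dominant negative cJun. Arrays of the latter are called dn-cJun arrays after their label. Total RNA of each mouse was hybridised to an Affymetrix array of its own. The sources used here state no age, dose or time after infection, and an adenovirus given to an animal reaches more than 1 cell type. In RNA from whole liver, fewer cells of a type and less RNA per cell cannot be told apart.

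MMPs are zinc-dependent endopeptidases that are secreted or held at the membrane as inactive precursors and that cleave collagens and other proteins of the extracellular matrix. TIMPs bind their active sites. cJun is a subunit of AP-1, a transcription factor that binds the promoters of several MMP genes, of which that of Mmp13 is a textbook example. In liver, macrophages, neutrophils and stellate cells are among the sources of MMPs and TIMPs. The cells that made each member were not analysed here.

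The promoter of Mmp13 is shown because AP-1 is the factor the virus was built to block. It is the 250 bases before the start of transcription in RefSeq, on the plus strand of GRCm38.p6 at chr9:7272264-7272513, with the AP-1 motif TGANTCA in capitals.
Mmp13: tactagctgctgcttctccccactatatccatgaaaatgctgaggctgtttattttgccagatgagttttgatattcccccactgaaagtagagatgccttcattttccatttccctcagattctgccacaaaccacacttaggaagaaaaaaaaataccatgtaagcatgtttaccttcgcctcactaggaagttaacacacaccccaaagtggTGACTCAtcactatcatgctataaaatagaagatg

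The AP-1 motif lies 35 to 29 bases before the start, upstream of a TATAAA element at 16 to 11 bases. The Ets-type motif AGGAAG occurs at 109 to 104 and at 62 to 57 bases before the start. Both strands were searched, in windows of 300 bases that run from 250 bases before the start to 50 after it. Such windows held TGANTCA in 7.81% of 32851 RefSeq promoters, TGACGTCA, the longer AP-1 motif, in 1.79%, AGGAAG in 35.4% and TATAAA in 13.6%. No match overlapped another in the Mmp13 window.

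Of the 10 genes, 8 had a promoter entry, and TGANTCA was found in those of Mmp13 and Mmp12. For Mmp12 the table lists 2 starts, and the motif lies at the second of them, 44 to 38 bases before it. The windows of Mmp8, Mmp14, Mmp15, Timp1, Timp2 and Timp3 and the first window of Mmp12 did not hold these letters, and none of the windows held TGACGTCA. The stretches around both matches are set side by side to show the AP-1 core, whose letters in Mmp12 are the reverse complement of those in Mmp13, the same site in the opposite orientation. That of Mmp13 lies at chr9:7272469-7272495 and that of Mmp12 at chr9:7347320-7347346, both on the plus strand of GRCm38.p6.
Mmp13: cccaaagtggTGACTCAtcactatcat
Mmp12: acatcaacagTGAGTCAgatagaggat

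Signal is given as log2(intensity + 16) after quantile normalization, where 1 unit is close to a doubling for bright probe sets and more than a doubling for dim ones. On the arrays the median deposited intensity was 85.3 to 127.5. Apoe, which the genotype in the labels removes from all 10 mice, was at 9.42 to 10.94 in the control arrays and at 15.31 to 15.82 in the dn-cJun arrays, which goes against the ApoE-/- label of those 5 mice. Where in the transcript this probe set reads is not known here. Every direction below therefore compares groups that also differ in Apoe signal. Jun, at 10.43 ± 0.24 (SD, n = 5) and 10.37 ± 0.37 (SD, n = 5), does not check the virus label, since it is not known whether its probe sets read the viral transcript. Controls 14 and 15 had high Xist (13.71 and 13.63, against 5.90 to 6.72 on the other 8 arrays) and low signal of the Y-linked genes Eif2s3y and Kdm5d. By these genes controls 14 and 15 read as female and the other 8 arrays as male. The sexes were thus mixed in the controls only, and fits without controls 14 and 15 compare arrays that read as male. No fit included sex as a factor. RNA of control 11 was extracted with Trizol per its label, whereas 9 arrays have Affymetrix in that entry. The tissue label was checked with 9 hepatocyte markers, albumin among them, whose summed normalized intensity was 347082 to 376342 in controls and 369163 to 400519 in dn-cJun arrays. All 9 had higher means in the dn-cJun arrays, by 0.01 to 0.79 with a median log2 difference of 0.06. None had a limma adjusted p under 0.05, and the cause of this direction was not tested.

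Mmp13, the main interstitial collagenase of rodents, was lower on all 5 dn-cJun arrays than on any control array. Its deposited intensity was 792, 254, 354, 276 and 333 on controls 11 to 15 and 120, 129, 100, 142 and 114 on dn-cJun 16 to 20. The normalized log2 signals were 9.34, 8.07, 8.52, 8.20 and 8.25 in the controls and 7.17, 7.35, 6.96, 7.45 and 7.0 in the dn-cJun arrays. Control 11 stood above the other controls, and the 5 dn-cJun arrays lay within a narrow band. The means were 8.47 ± 0.51 (SD, n = 5) and 7.18 ± 0.21 (SD, n = 5), a log2 difference of -1.29 (SE 0.22). In the controls the normalized intensity + 16 was thus 2.44-fold higher, and the added 16 makes this fold smaller than that of the intensity itself. Without control 11 the difference was -1.08 (SE 0.16), and without controls 14 and 15 it was -1.45 (SE 0.26). It has 1 probe set, so no second one checks the reading.

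**Figure D1:**
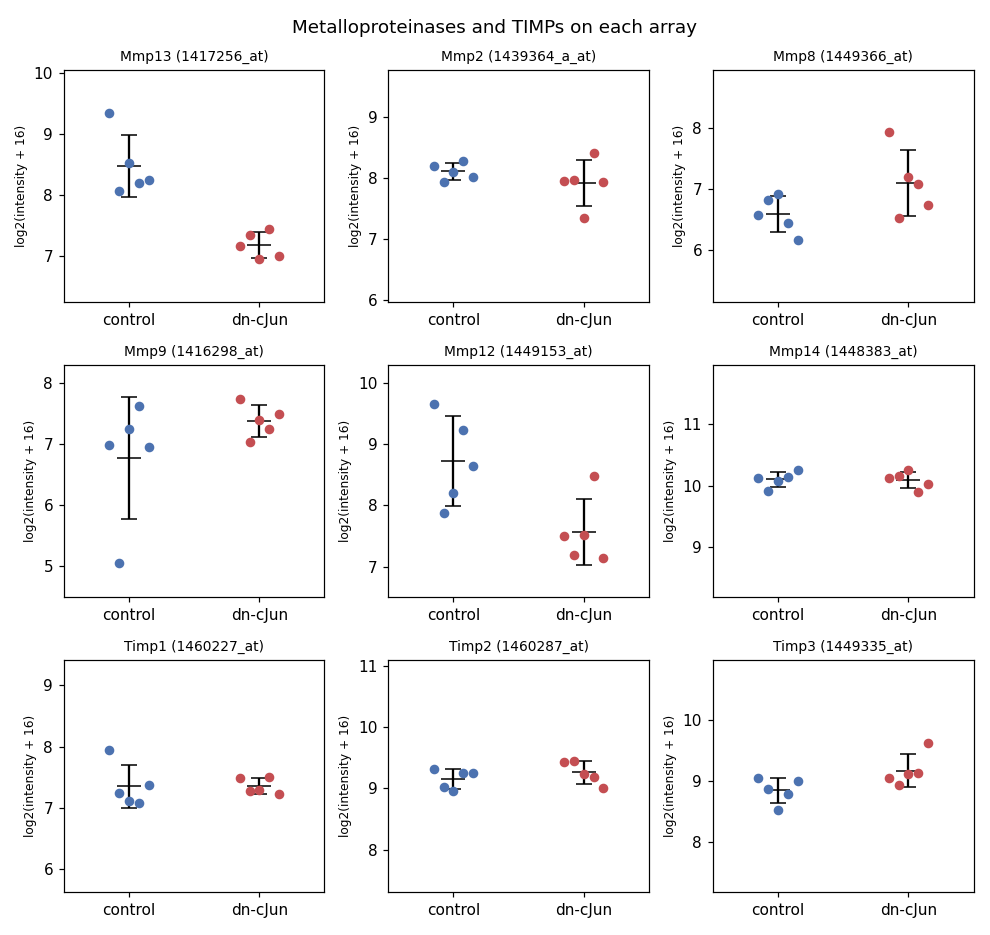
Normalized log2(intensity + 16) of the brightest probe set of each of 9 genes on each array (points), in 5 control arrays and 5 dn-cJun arrays; the bars are the mean ± SD and every panel spans the same range of log2 units. The Mmp13 points of the groups do not overlap (8.07 to 9.34 against 6.96 to 7.45), and those of the other 8 genes do.

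Mmp12, the macrophage elastase and the neighbour of Mmp13 on chromosome 9, had the second-largest difference. Its log2 signal was 9.66, 7.88, 8.21, 9.24 and 8.65 on controls 11 to 15 and 7.5, 7.19, 7.51, 8.49 and 7.14 on dn-cJun 16 to 20. Controls 12 and 13 were below dn-cJun 19, so the groups overlapped. The means were 8.73 ± 0.73 (SD, n = 5) and 7.57 ± 0.54 (SD, n = 5), a log2 difference of -1.16 (SE 0.33). The controls spread more for Mmp12 than for Mmp13, and the error of the difference was larger.

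Macrophage and Kupffer cell markers are given beside these genes, since macrophages are the usual source of Mmp12. All 12 markers were on the array, 1 of them (Timd4) below the level of the filter described next. Their summed normalized intensity was 30847 to 45678 in controls and 30776 to 34872 in dn-cJun arrays. Of 11 tested, 7 were lower, with a median log2 difference of -0.15. The 4 that were higher were Marco (0.24), Vsig4 (0.05), C1qa (0.03) and Mpeg1 (0.02). At a limma adjusted p under 0.05, 2 of the 11 were called, where 0.777% of all genes were. The lysozyme gene Lyz2 fell by 0.70 with an SE of 0.13 (limma adjusted p = 0.0294), and the gene of the secreted macrophage protein Cd5l fell by 0.57 with an SE of 0.11 (limma adjusted p = 0.0323). Without controls 14 and 15, 5 of the 11 were lower with a median of 0.02, Lyz2 was still called (limma adjusted p = 0.0367) and Cd5l was not (limma adjusted p = 0.105), while Mmp12 was at -1.01 (SE 0.39). The part of macrophage content in the difference of Mmp12 or Mmp13 was not tested.

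In the fit across genes, each gene was represented by its brightest probe set, and genes whose mean was under the 40th percentile (a normalized intensity of 50.6) were left out. All 9 member genes passed that filter, on the mean over all arrays. The fit called a gene at a limma adjusted p under 0.05. It called 99 of 12736 genes (0.777%), 55 of them lower (0.432%), and among the 9 members it called Mmp13 as lower. Group ranges were separate in 4.22% of all genes and in 1 of the 9 members. The members were chosen with this comparison known, so nothing is read from these counts. The median log2 difference was 0.01 over the members and 0.0015 over all genes tested.

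Mmp8, the collagenase stored in neutrophil granules, and Mmp9, a gelatinase of neutrophils and macrophages, had higher means in the dn-cJun arrays. The log2 signal of Mmp8 was 6.58, 6.82, 6.92, 6.45 and 6.17 on controls 11 to 15 and 7.93, 6.52, 7.20, 7.08 and 6.74 on dn-cJun 16 to 20, a log2 difference of 0.51 (SE 0.27). The highest array was dn-cJun 16, and dn-cJun 17 and 20 lay within the range of the controls. The Mmp8 difference was 0.30 (SE 0.25) without dn-cJun 16 and 0.32 (SE 0.30) without controls 14 and 15. With 1 array left out in turn it was 0.30 to 0.66. The brighter Mmp9 probe set read 6.99, 5.05, 7.24, 7.63 and 6.95 in the controls and 7.74, 7.04, 7.40, 7.24 and 7.49 in the dn-cJun arrays, a log2 difference of 0.61 (SE 0.39). Control 12 alone was low, and without it the difference was 0.18. Without controls 14 and 15 the difference was 0.94 (SE 0.42). With 1 array left out in turn it was 0.18 to 0.82. The dimmer Mmp9 probe set, below the filter level, gave 0.10 (SE 0.40). The ranges of the groups overlapped for both genes.

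Neutrophil markers varied widely between arrays of the same group. Of 11 markers, 10 were on the array, and Cxcr2 was below the filter level. Their summed normalized intensity was 4016 to 31530 in controls and 7517 to 27995 in dn-cJun arrays, and the median log2 difference of the 9 tested was 0.13 with none called. That median was -0.26 without control 12 and -0.11 without dn-cJun 16, with 8 of 9 lower in each case. With any other 1 array left out the median was 0.08 to 0.44. Without controls 14 and 15 it was 0.46, with 8 of 9 higher. The part of neutrophil content in Mmp8 and Mmp9 was not tested.

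Mmp14, a membrane-anchored collagenase that activates the precursor of Mmp2, had nearly the same mean in both groups. Its brightest probe set had a mean of 10.10 ± 0.12 (SD, n = 5) in the controls and 10.09 ± 0.13 (SD, n = 5) in the dn-cJun arrays, a log2 difference of -0.01 (SE 0.09). The other Mmp14 probe sets gave -0.23 (SE 0.20) and -0.24 (SE 0.18). Mmp2, a gelatinase of stellate cells and fibroblasts, gave -0.19 (SE 0.17) and, on its other probe set, -0.21 (SE 0.20). In both genes the ranges of the groups overlapped on every probe set. Stellate cell and fibroblast markers, 11 of 12 on the array and all above the filter level, had a summed normalized intensity of 14301 to 17551 in controls and 14393 to 15992 in dn-cJun arrays. Of the 11, 7 were lower and none was called, with a median log2 difference of -0.12. Ngfr, a neurotrophin receptor, was at -0.87 (SE 0.23, limma adjusted p = 0.113) with separate ranges, as in 4.22% of all genes. Pdgfrb, a growth factor receptor of these cells, was at -0.55 (SE 0.18, limma adjusted p = 0.186). The 4 that were higher were Col3a1 (0.24), Pdgfra (0.17), Col1a1 (0.09) and Reln (0.07). Ngfr and Pdgfrb were named after their values were seen, and the part of stellate cell content in Mmp2 and Mmp14 was not tested.

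The inhibitors showed small differences, and their probe sets did not all point the same way. Timp1, an inducible inhibitor of most MMPs, was at 7.95, 7.24, 7.11, 7.08 and 7.37 on controls 11 to 15 and at 7.48, 7.28, 7.29, 7.5 and 7.23 on dn-cJun 16 to 20. The log2 difference was 0.01 (SE 0.19), and its sign changed in 10 of 23 alternative settings, the scaling alternatives among them. The raised array was control 11, as for Mmp13.

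Timp2, which inhibits MMPs and also takes part in the activation of Mmp2 by Mmp14, had 6 probe sets. The brightest gave 0.10 (SE 0.11). The next brightest gave 0.67 (SE 0.25), with 8.05 ± 0.59 (SD, n = 5) in the controls and 8.72 ± 0.31 (SD, n = 5) in the dn-cJun arrays. In order of mean signal the other 4 gave -0.09 (SE 0.18), -0.16 (SE 0.23), 0.02 (SE 0.55) and 0.12 (SE 0.35). The probe sets with 0.67 and -0.09 carry the same source sequence in the annotation.

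Timp3, an inhibitor bound to the matrix, had 4 probe sets that share 1 source sequence. The brightest gave 0.32 (SE 0.14) and the next 0.08 (SE 0.14), while the dimmer 2 gave -0.52 (SE 0.25) and -0.27 (SE 0.34). Of the 5 member genes with several probe sets, Timp2 and Timp3 had both signs, and Mmp2, Mmp9 and Mmp14 had 1 sign each. Over all 21 probe sets, 10 were higher and 11 lower, with a median of -0.01. In the fit across every single-symbol probe set, which called 0.429% of them, the Mmp13 probe set was called and the other 20 were not. It was also the 1 member probe set whose groups did not overlap, as in 2.8% of all probe sets. The parts of the Timp2 and Timp3 transcripts that these probe sets read were not analysed here.

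**Figure D2:**
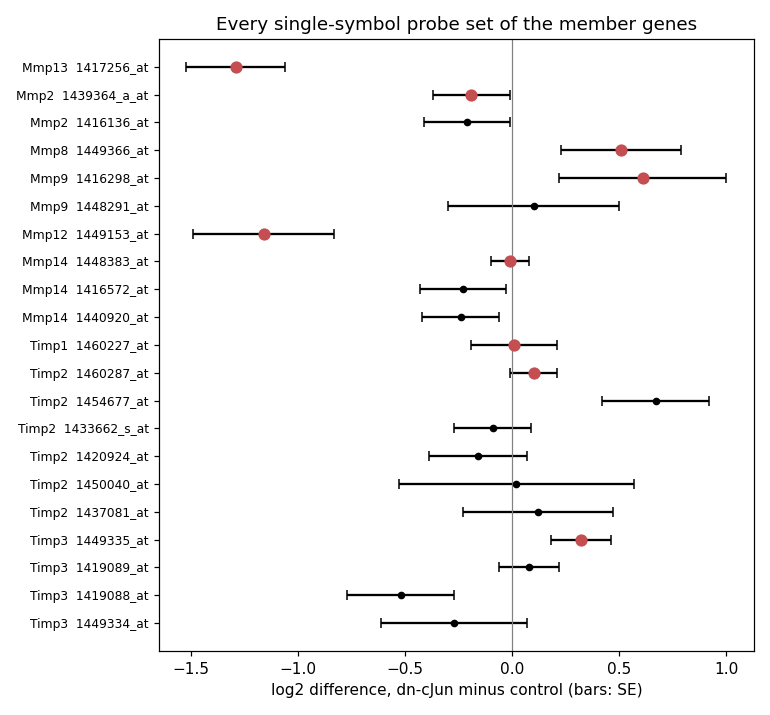
Log2 difference (dn-cJun minus control) with its standard error for each of 21 probe sets of the member genes, red for the brightest probe set of a gene. The probe sets of Mmp13 (-1.29) and Mmp12 (-1.16) lie apart from the rest, and those of Timp2 and Timp3 fall on both sides of 0.

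Mmp13 and Mmp12 stand at one end of a run of 10 MMP genes on chromosome 9, in the order Mmp13, Mmp12, Mmp1b, Mmp3, Mmp1a, Mmp10, Mmp8, Mmp27, Mmp20 and Mmp7. No other protein-coding gene lies between them in the RefSeq table. Of these, Mmp13, Mmp12, Mmp8 and Mmp7 passed the filter. Mmp7, matrilysin, which lies at the other end, was at 6.82 ± 1.10 (SD, n = 5) in the controls and 7.18 ± 0.62 (SD, n = 5) in the dn-cJun arrays, a log2 difference of 0.35 (SE 0.47). Mmp3, a stromelysin, had the third-lowest difference of the run, -0.69 (SE 0.37), but at means of 5.67 and 4.98 it was below the filter level of 6.06. Mmp1b, Mmp1a, Mmp10 and Mmp20 were also below it, with differences between 0.03 and 0.47, and Mmp27 matched no probe set. Along this run the lower values were thus those of Mmp13, Mmp12 and the dim Mmp3, and the other 6 genes with a probe set had positive differences.

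Genes around the MMPs were read from 5 lists that hold none of the members. Together they named 95 genes, of which 85 were on the array and 69 were tested. None was called in the limma fit (adjusted p under 0.05), where 0.777% of all genes were, and 9 had an unadjusted p under 0.05, which is 13% of them against 14.9% of all genes. Of the 69, 31 were higher and 38 lower, and the median log2 difference was -0.04. Group ranges were separate in 2 of the 69, Ctsb and Col6a1, where they were in 4.22% of all genes, so nothing is read from this.

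Among the remaining MMPs and Timp4, 6 of 17 were tested, with 4 higher and 2 lower and none called. The member with the smallest p was Mmp23 at -0.89 (SE 0.38, limma adjusted p = 0.295). It was at 6.68 to 7.54 in controls and 5.04 to 7.30 in dn-cJun arrays, which overlap. Of the ADAM and ADAMTS proteases, related enzymes that shed membrane proteins or cleave proteoglycans, 7 were higher and 6 lower of 13 tested. Adamts15 had the smallest p, at -1.0 (SE 0.41, limma adjusted p = 0.281).

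The list of the plasmin system with proteinase activators, inhibitors and clearance receptors had 8 higher and 8 lower of 16 tested and none called. Cathepsin B, Ctsb, a lysosomal protease, had the smallest p, at -0.19 (SE 0.05, limma adjusted p = 0.141). Its 5 dn-cJun arrays, at 14.23 to 14.32, lay below the controls, at 14.37 to 14.56. Lrp1, an endocytic receptor that clears Mmp13 and other proteases, was at 0.27 (SE 0.12, limma adjusted p = 0.298). Plg, which encodes plasminogen, the precursor of an activator of pro-MMPs, was at -0.02 (SE 0.07).

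The substrates of the MMPs were split evenly. Of 22 tested collagens and other matrix genes, 11 were higher and 11 lower, with a median of 0.02 and none called. The fibrillar collagen genes that Mmp13 acts on had differences of 0.09 (SE 0.25) for Col1a1, 0.25 (SE 0.12) for Col1a2 and 0.24 (SE 0.14) for Col3a1. Col6a1, a chain of a microfibrillar collagen, had the smallest p here, with 0.42 (SE 0.13, limma adjusted p = 0.152). Its controls, at 7.70 to 8.17, lay below the dn-cJun arrays, at 8.19 to 8.51, by 0.02 at the nearest pair.

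Of 12 tested AP-1 target genes outside the proteinases, 11 were lower and 1 higher, at a median log2 difference of -0.24 and none called. The median over all genes tested was 0.0015. Ccl2, a chemokine that attracts monocytes, was just short of the threshold. It read 8.97, 8.36, 9.12, 9.21 and 9.14 on controls 11 to 15 and 7.41, 7.78, 8.24, 8.52 and 7.94 on dn-cJun 16 to 20, a log2 difference of -0.98 (SE 0.21, limma adjusted p = 0.0524). Control 12 was below dn-cJun 19, and the other controls were above all dn-cJun arrays. Ccl2 was called in 8 of 24 alternative settings, at a limma adjusted p of 0.0125 to 0.166. Lor, a protein of the skin barrier, was the 1 higher member, at 1.11 (SE 0.28, limma adjusted p = 0.0935), and Ccnd1, a cyclin, was at -0.38 (SE 0.17). Without controls 14 and 15, 8 of the 12 were lower and the median was -0.06.

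**Figure D3:**
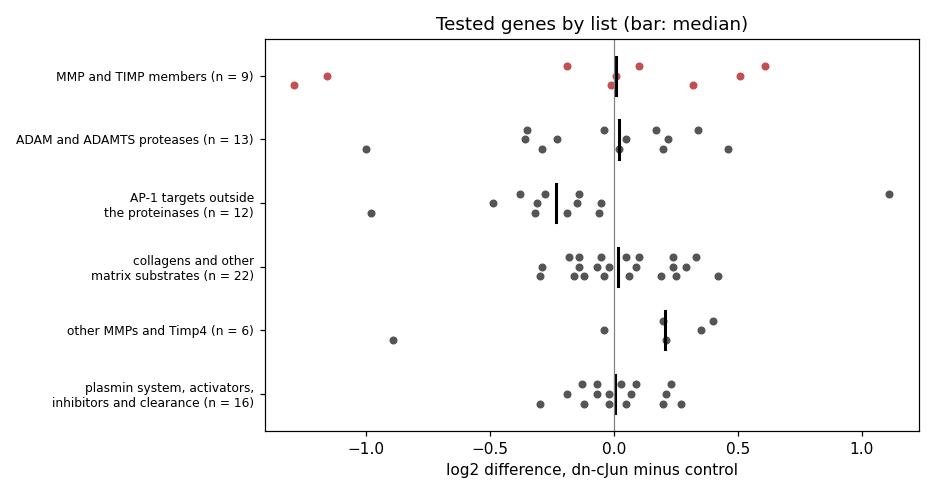
Log2 difference (dn-cJun minus control) of each tested gene, by list, with a bar at the median and the number of genes beside each name; red points are the 9 member genes. The AP-1 targets outside the proteinases have 11 of 12 points below 0 (median -0.24), and the collagens lie evenly around 0 (median 0.02). Without controls 14 and 15, a fit not drawn here, 8 of the 12 AP-1 targets were lower (median -0.06). The lists were chosen with earlier results of these data known.

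How the members varied between mice of the same group was read from each array's deviation from its group mean, a measure that the difference between the groups does not enter. Mmp13 was compared over the 10 arrays with the other 8 members and with 7 lists of cell type markers, 15 relations in all. P-values are two-sided and exact, from all 14400 rearrangements of the arrays within their groups. With Timp1 the Pearson r was 0.83 (exact permutation p = 0.0615) and Spearman's rho 0.56 (exact permutation p = 0.134). With Mmp12 they were 0.64 (exact permutation p = 0.0731) and 0.43 (exact permutation p = 0.286). Without the 2 arrays farthest from the median of Mmp13, control 11 and dn-cJun 19, r was -0.08 with Timp1 and -0.06 with Mmp12, so both relations rest on those arrays. With Mmp2, r was 0.43 (exact permutation p = 0.0714), and 0.46 without them, and rho was 0.55 (exact permutation p = 0.0988).

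No relation passed after adjustment over the 15 (smallest adjusted permutation p = 0.219 for Pearson and 0.357 for Spearman). The smallest unadjusted p-values were those of the lymphocyte and NK cell markers, with r of 0.78 (exact permutation p = 0.0203) and rho of 0.50 (exact permutation p = 0.113), and of the endothelial markers, with r of -0.73 (exact permutation p = 0.0314) and rho of -0.71 (exact permutation p = 0.0238). Without control 11 and dn-cJun 19, r was 0.19 and -0.13 for these lists. Other relations were larger without these arrays. The r went from 0.38 to 0.72 for bile duct markers, from 0.02 to -0.68 for Timp3 and from 0.09 to 0.51 for neutrophil markers. For the macrophage and Kupffer cell markers r was -0.26 (exact permutation p = 0.73) and rho -0.19 (exact permutation p = 0.688), and without the same arrays r was 0.34.

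**Figure D4:**
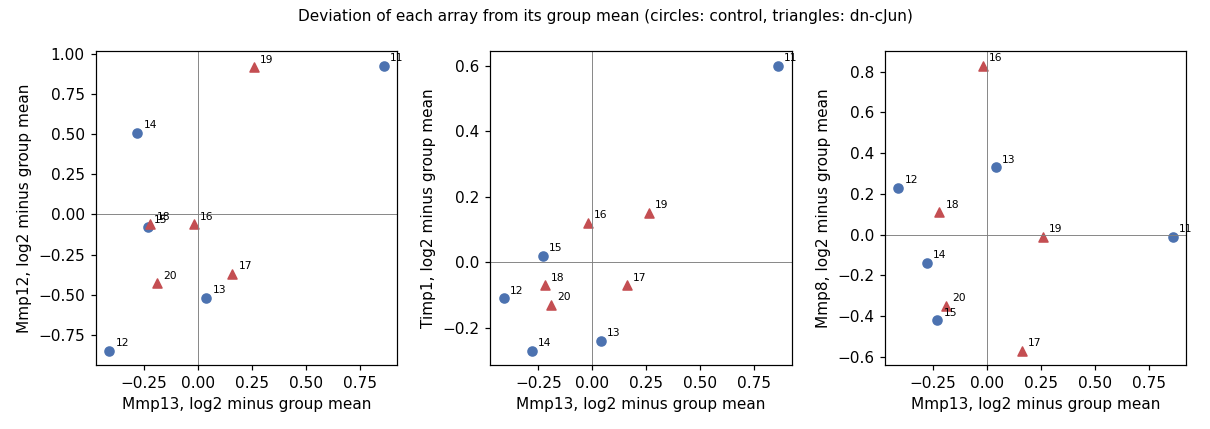
Deviation of each array from its group mean (log2 units) for Mmp13 on the horizontal axis and Mmp12, Timp1 or Mmp8 on the vertical axis; numbers are the replicates, circles control arrays and triangles dn-cJun arrays. Control 11 lies high for Mmp13 (0.86), Mmp12 (0.93) and Timp1 (0.60), and no such pattern is seen with Mmp8 (r of -0.01).

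The genes most like Mmp13 within the groups were searched among the genes tested, again on deviations from the group means over 10 arrays. As the extremes of 12736 genes they are a description. The highest Pearson r were those of Fabp4, a fatty acid binding protein of adipocytes and macrophages, at 0.951, Eif4ebp1, a repressor of translation, at 0.947 and Dtl, a factor of DNA replication licensing, at 0.935. The lowest were those of Cyp2c23, a cytochrome P450 (-0.978), Scaf11 (-0.969) and Pbld2 (-0.961). Without control 11, r was 0.75 to 0.82 for the first 3 and -0.90 to -0.87 for the others. Fabp4, Eif4ebp1 and Dtl differed little between the groups, at 0.05 (SE 0.22), 0.07 (SE 0.10) and 0.02 (SE 0.23), and Pbld2 rose by 0.40 (SE 0.08, limma adjusted p = 0.0426).

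The difference of Mmp13 stayed negative in all 24 alternative settings tried, between -1.49 and -1.06. Since Mmp13 was chosen by this difference and its groups did not overlap, its sign had little room to change and is no further support. Its call was lost with eBayes without trend (limma adjusted p = 0.0764) and kept without controls 14 and 15 (limma adjusted p = 0.0367). With 1 array left out in turn it was kept in 4 of 10 fits and lost in 6, those without control 13 or without any 1 of the 5 dn-cJun arrays, at differences of -1.39 to -1.08 over the 10 fits and limma adjusted p-values of 0.014 to 0.064.

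**Figure D5:**
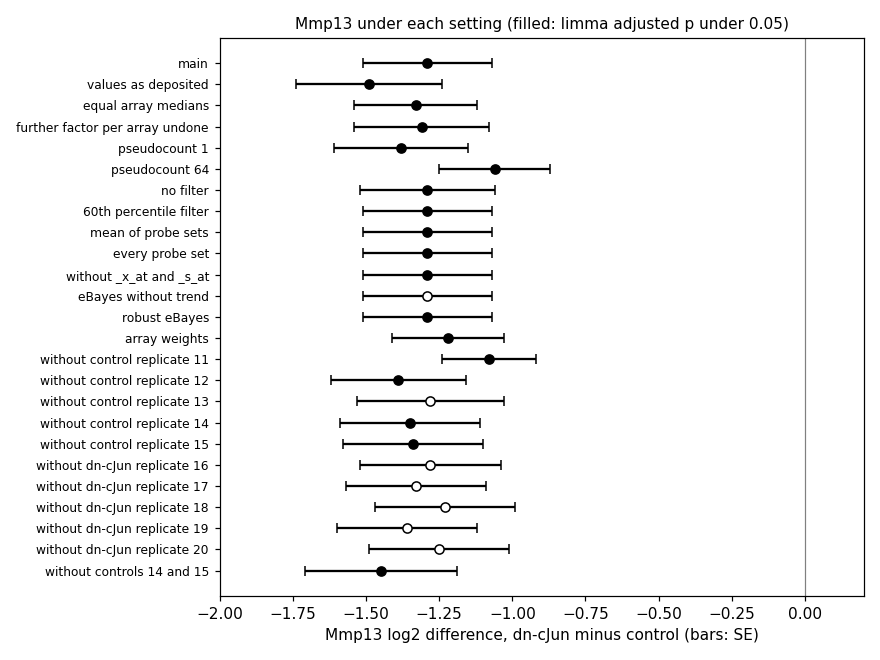
Log2 difference of Mmp13 (dn-cJun minus control) with its standard error in the main setting and in 24 alternatives, filled where the limma adjusted p is under 0.05. The points lie between -1.49 and -1.06, for a gene that was chosen by this difference.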

How the data were processed

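The authors deposited linear intensity per probe set, from 1 Affymetrix array per mouse per the labels. Their software was not given in the sources used here. Columns carry a factor per array of 0.8867 to 1.219, relative to a mean of 500 after trimming 2% at each end, whose purpose is not stated. Values were taken as log2(intensity + 16), quantile-normalized because the array medians spanned 0.50, and fitted with limma 3.58.1 in R 4.3.3 (lmFit, eBayes with intensity trend, two-sided, Benjamini-Hochberg adjustment over all 12736 genes, threshold 0.05). Of 45101 probe sets, 64 controls were left out, 34945 had 1 symbol, 932 several and 9160 are unnamed here. Entrez identifiers of 99.42% of single-symbol probe sets were in the gene table of GRCm38.p6. Promoters came from RefSeq. The members, lists and alternatives were chosen with earlier results of these data known. Named genes are the members, the called or smallest-p gene of each list, the 3 highest and lowest in likeness to Mmp13, and label checks; some other list genes were picked with their values known. On simulated data the limma step was tested first. The labels give a separate mouse for each array, and the number of arrays limits the precision. Detection calls were not used here.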

Additional observations from a re-analysis of the deposited data

Results flagged for a closer look

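In groups of 5 arrays, 58 sets of values were checked for an array that stands apart. The rule was a gap to the nearest other array of more than 0.71 of the group's range. It flagged 7 sets, where chance gives about 1 in 20 for independent, normally distributed values. The sets share arrays and some share a gene, so no excess is read from this count. Among the member genes, Mmp9 on control 12 was at 5.05, against 6.95 to 7.63 on the other controls. The third-brightest Timp2 probe set was at 7.41 on control 11, against 8.14 to 8.38, and the dimmest Timp2 probe set was at 6.07 on dn-cJun 17, against 4.27 to 4.67. Mmp12 was at 8.49 on dn-cJun 19, against 7.14 to 7.51, and the brightest Timp3 probe set was at 9.62 on dn-cJun 20, against 8.93 to 9.12. Control 12 was also apart for Ccl2, at 8.36 against 8.97 to 9.21, and for Cd5l, at 13.05 against 13.45 to 13.56.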

How the results depend on the processing

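Of 24 alternatives, each changing 1 choice, 10 left out 1 array. The values as deposited shifted the median gene by -0.193 and called 490 genes, 22 higher and 468 lower, 2 members (Mmp13 and Mmp12, the latter at -1.36, limma adjusted p = 0.0408) and 2 related genes (Col14a1 and Ccl2). Equal array medians called 65 genes, 20 higher and 45 lower, averaging the probe sets of a gene 44, every probe set 157, and the fit without controls 14 and 15 called 52. eBayes without trend called 9 genes and 0 members, with Mmp13 at -1.29 (limma adjusted p = 0.0764). Related genes called were 1 with equal array medians, a pseudocount of 64, the 60th percentile filter, every probe set, robust eBayes and array weights. With 1 array left out, the genes called were 13 (without dn-cJun 17) to 199 (without control 12), related genes 0 to 1, members 0 to 1 and Mmp13 at -1.39 to -1.08. Mmp2, Mmp8, Mmp9 and Mmp12 kept their sign in all alternatives that gave a value. The sign changed in 4 for Mmp14, 10 for Timp1, 1 for Timp2 (as deposited, -0.11) and 1 for Timp3 (mean of probe sets, -0.10). The causes were not tested. No paired analysis was possible because the replicate numbers do not repeat between the groups.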
